A study of Drosophila melanogaster with 9 samples.

Results

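The cytosolic ribosomal protein genes of Drosophila melanogaster were followed in the heads of adult females. Genes were taken by name, as every gene whose FlyBase symbol begins with RpL or RpS, which leaves out the mitochondrial ribosomal proteins (mRp). The annotation held 92 such symbols and the count tables held 87 of their identifiers. Of these, 78 genes had 10 or more reads in at least 3 libraries and formed the set, out of 17558 genes listed. The set held 47 genes named for the large subunit and 31 named for the small subunit. A further 9 genes stayed below the read minimum, and 5 (RpL19, RpL27A, RpL31, RpS10b and RpS12) were not analysed here.

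The libraries formed 3 groups of 3. They came from flies homozygous for Ime4, flies heterozygous for Ime4 and control flies, all adult females aged 1 to 2 days and raised at 25 °C and 60% humidity. Ime4 is the Drosophila METTL3, the enzyme that puts the m6A mark on messenger RNA. The labels name no allele, no control strain and no number of heads per library, and they do not say whether replicates were separate cultures. The p-values therefore measure the spread between these libraries, which may be technical.

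A ribosome is built from a small subunit, which reads the messenger RNA, and a large subunit, which joins the amino acids. Each subunit is ribosomal RNA with a set of proteins present mostly in a single copy, so cells need these proteins in balanced amounts. In Drosophila, loss of 1 copy of many of these genes gives the Minute phenotype of slow development and short bristles. The transcripts are short and abundant, and many start with a run of pyrimidines through which the Tor pathway and the RNA-binding protein Larp control their translation. Several of the genes carry small nucleolar RNAs in their introns.

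Reads counted in genes numbered 2730289 to 4272550 per library. The targeted gene, listed as Mettl3, had 3, 3 and 2 reads in homozygous, 8, 13 and 16 in heterozygous and 17, 19 and 18 in control libraries. The 7 photoreceptor genes listed as markers of the head were read in all 9 libraries, at 20734 to 21590 CPM in sum (reads scaled to library size) in homozygous, 23691 to 26214 in heterozygous and 27450 to 30771 in control libraries, so that the 3 groups did not overlap. Some libraries held transcripts of other tissues. A list of 10 digestive tract genes, of which gammaTry was at 0 in all libraries, summed to 431 and 567 CPM in homozygous replicates 1 and 2, to 19.0 in homozygous replicate 3, and to between 5.30 and 35.1 in the 6 heterozygous and control libraries. A list of 9 ovary genes summed to 376 CPM in control replicate 3 and to at most 2.92 elsewhere. Counts of calls are given below with and without homozygous replicates 1 and 2, in fits where replicate 3 was the only homozygous library and was assumed to vary like the other groups. Values by library show the rest.

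Ribosomal protein transcripts made up a larger part of the reads in both groups with Ime4 alleles than in control. They took 3.17, 3.49 and 2.53% of the reads in genes in homozygous libraries, 2.76, 2.76 and 2.97% in heterozygous libraries and 2.16, 1.88 and 2.13% in control libraries. Every homozygous and heterozygous library lay above every control library, and homozygous replicate 3 lay below all heterozygous libraries. The means were 3.07 ± 0.490% in homozygous, 2.83 ± 0.122% in heterozygous and 2.06 ± 0.158% in control flies (SD, n = 3 each), which is 1.49 times the control mean in homozygous and 1.38 times in heterozygous flies. In bulk samples such as these, fewer cells of a type and less RNA per cell cannot be told apart.

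**Figure D1:**
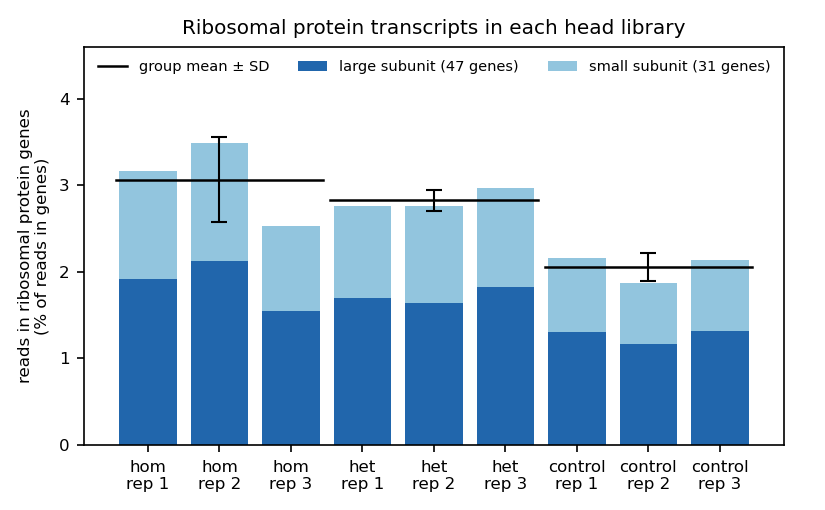
Percentage of reads in genes (vertical axis) that fell in the 47 large subunit (dark) and 31 small subunit genes (light), for each library of homozygous (hom), heterozygous (het) and control flies. Black lines give the group mean and SD (n = 3). The 3 control bars, at 1.88 to 2.16%, are below all 6 others, at 2.53 to 3.49%.

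Set against the mean of the control libraries, the median member stood 0.71, 0.84 and 0.34 higher on the log2 CPM scale in the homozygous libraries and 0.50, 0.51 and 0.62 higher in the heterozygous libraries. The control libraries themselves stood at 0.15, -0.16 and -0.00. Of the 78 members, 74, 77 and 60 were above the highest control library in homozygous replicates 1, 2 and 3, and 67, 76 and 71 in heterozygous replicates 1, 2 and 3. The difference was thus shared by most members in each library, and was smallest in homozygous replicate 3. Replicates of a group differed as well: the median member spanned 0.50 on the log2 scale between the lowest and highest homozygous library, 0.25 in heterozygous and 0.37 in control libraries.

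**Figure D2:**
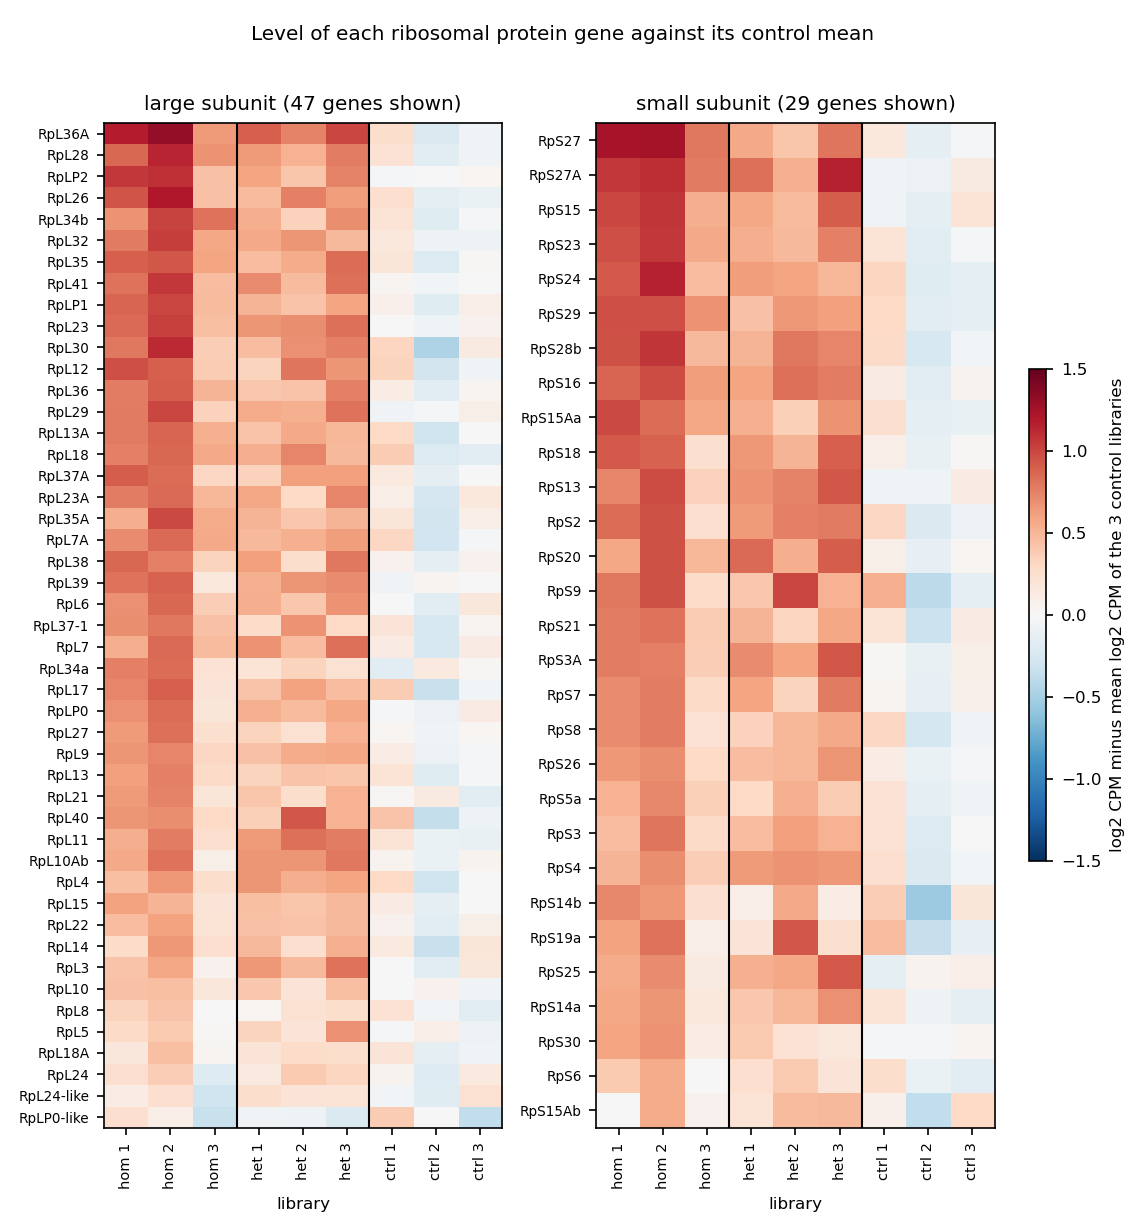
Log2 CPM of the members shown in each library, minus their mean over the 3 control libraries (colour scale; red is higher). Rows are genes, ordered within each subunit by the homozygous fold change, and columns are libraries of homozygous (hom), heterozygous (het) and control (ctrl) flies. Homozygous replicate 3 is paler than replicates 1 and 2, with a median of 0.34 against 0.71 and 0.84.

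Homozygous flies were compared with control flies by edgeR's quasi-likelihood test over 8972 genes, with a call at a Benjamini-Hochberg adjusted p under 0.05. A total of 64 members were called higher and 0 lower. Over all genes tested, 10.9% were called higher and 8.77% lower. At an unadjusted p under 0.05, 69 members were higher and 0 lower, and DESeq2 called 65 higher and 0 lower. Over all genes tested, 1623 were higher and 1356 lower at that p, and DESeq2 called 857 higher and 741 lower. The median log2 fold change of the members was 0.65, against 0.02 over all genes tested, and 78 of 78 fold changes were positive. The 3 homozygous libraries all lay above the 3 control libraries for 60 members, against 17.9% of all genes tested. Leaving out control replicate 2 lowered the number called to 37, and leaving out homozygous replicate 2 lowered it to 40. Over all genes tested, the 978 called higher became 639 and 713 in these settings. Without homozygous replicates 1 and 2 together, the libraries with digestive tract transcripts, the median of the members was 0.31, against -0.02 over all genes tested.

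RpS27 and RpS27A were among the small subunit genes with the largest fold changes. RpS27, a zinc-binding protein of the small subunit, lies on chromosome 3R from 25245955 to 25247514 (minus strand, BDGP6). It had 424.9, 427.3 and 310.2 CPM in homozygous, 265.6, 239.4 and 313.4 CPM in heterozygous and 199.9, 163.2 and 177.8 CPM in control libraries. Control libraries were lowest, and the ranges of the homozygous and heterozygous libraries overlapped. Its log2 fold change in homozygous against control flies was 1.10 ± 0.15 (SE; edgeR adjusted p = 2.4e-04).

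RpS27A is made as a fusion of ubiquitin with the ribosomal protein, and the protein is cut free after translation. On 2L from 10408352 to 10410456 (plus strand), it had 803.9, 831.7 and 663.9 CPM in homozygous, 686.4, 561.2 and 862.4 CPM in heterozygous and 374.2, 364.1 and 424.2 CPM in control libraries. No control library reached the lowest of the others. The log2 fold change in homozygous against control flies was 0.98 ± 0.15 (SE; edgeR adjusted p = 7.09e-04), and 35 bases of its exons are shared with another gene on the same strand.

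Among large subunit genes RpL36A rose most in homozygous flies. It lies on 2L from 8041873 to 8042909 (minus strand) and had 237.9, 263.8 and 164.5 CPM in homozygous, 195.8, 177.0 and 210.9 CPM in heterozygous and 126.7, 91.1 and 101.8 CPM in control libraries. The control libraries were lowest, and homozygous replicate 3 was below the 3 heterozygous libraries. The log2 fold change in homozygous against control flies was 1.06 ± 0.17 (SE; edgeR adjusted p = 8.85e-04).

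The acidic stalk of the large subunit, where elongation factors dock, is formed by RpLP0, RpLP1 and RpLP2. RpLP2 had 1846, 1882 and 1202 CPM in homozygous, 1334, 1181 and 1482 CPM in heterozygous and 871.7, 879.3 and 901.5 CPM in control libraries. All 3 stalk genes were called higher in homozygous and in heterozygous against control flies. In homozygous against control flies their log2 fold changes were 0.59 ± 0.15 for RpLP0, 0.79 ± 0.14 for RpLP1 and 0.89 ± 0.16 for RpLP2 (SE; edgeR adjusted p = 0.0126, 0.00178 and 0.00181). Set against control, heterozygous flies gave 0.53 ± 0.15, 0.51 ± 0.14 and 0.59 ± 0.16 (SE; edgeR adjusted p = 0.0403, 0.0388 and 0.0331), and the calls of RpLP0 and RpLP1 there held in 14 of 22 other settings each. Without homozygous replicates 1 and 2 together the call of RpLP2 in homozygous flies was lost, and its call in heterozygous flies was lost on leaving out any single heterozygous or control library.

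RpL41, whose product is among the shortest proteins known, had the highest level per exon length in the set, at 4370 CPM per kilobase in homozygous, 4016 in heterozygous and 2507 in control flies. RpLP2 followed, at 2721, 2206 and 1464 CPM per kilobase. RpS15Ab and RpLP0-like were lowest on the same scale, at 16.6 and 18.8 CPM per kilobase in homozygous, 18.6 and 17.0 in heterozygous and 14.4 and 18.8 in control flies. RpL41 had 1410, 1676 and 1109 CPM in homozygous, 1313, 1116 and 1427 CPM in heterozygous and 824.9, 781.4 and 800.0 CPM in control libraries. The control libraries spanned a narrow range below all others, and its log2 fold change was 0.80 ± 0.15 in homozygous and 0.68 ± 0.15 in heterozygous against control flies (SE; edgeR adjusted p = 0.00228 and 0.0119). The call in heterozygous flies was lost on leaving out heterozygous replicate 1 or 3 or control replicate 2, and the call in homozygous flies without homozygous replicates 1 and 2 together.

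RpL32, also called Rp49, is widely used as the reference gene in quantitative PCR of Drosophila RNA. It had 166.2, 198.7 and 145.5 CPM in homozygous, 143.9, 154.0 and 136.4 CPM in heterozygous and 108.1, 91.96 and 91.83 CPM in control libraries. No control library overlapped the other groups. The log2 fold change was 0.81 ± 0.13 in homozygous and 0.58 ± 0.13 in heterozygous against control flies (SE; edgeR adjusted p = 0.00102 and 0.0158). The call in homozygous flies held in 22 of 22 other settings and that in heterozygous flies in 18 of 22, being lost on leaving out heterozygous replicate 1 or 2 or control replicate 2 or 3.

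**Figure D3:**
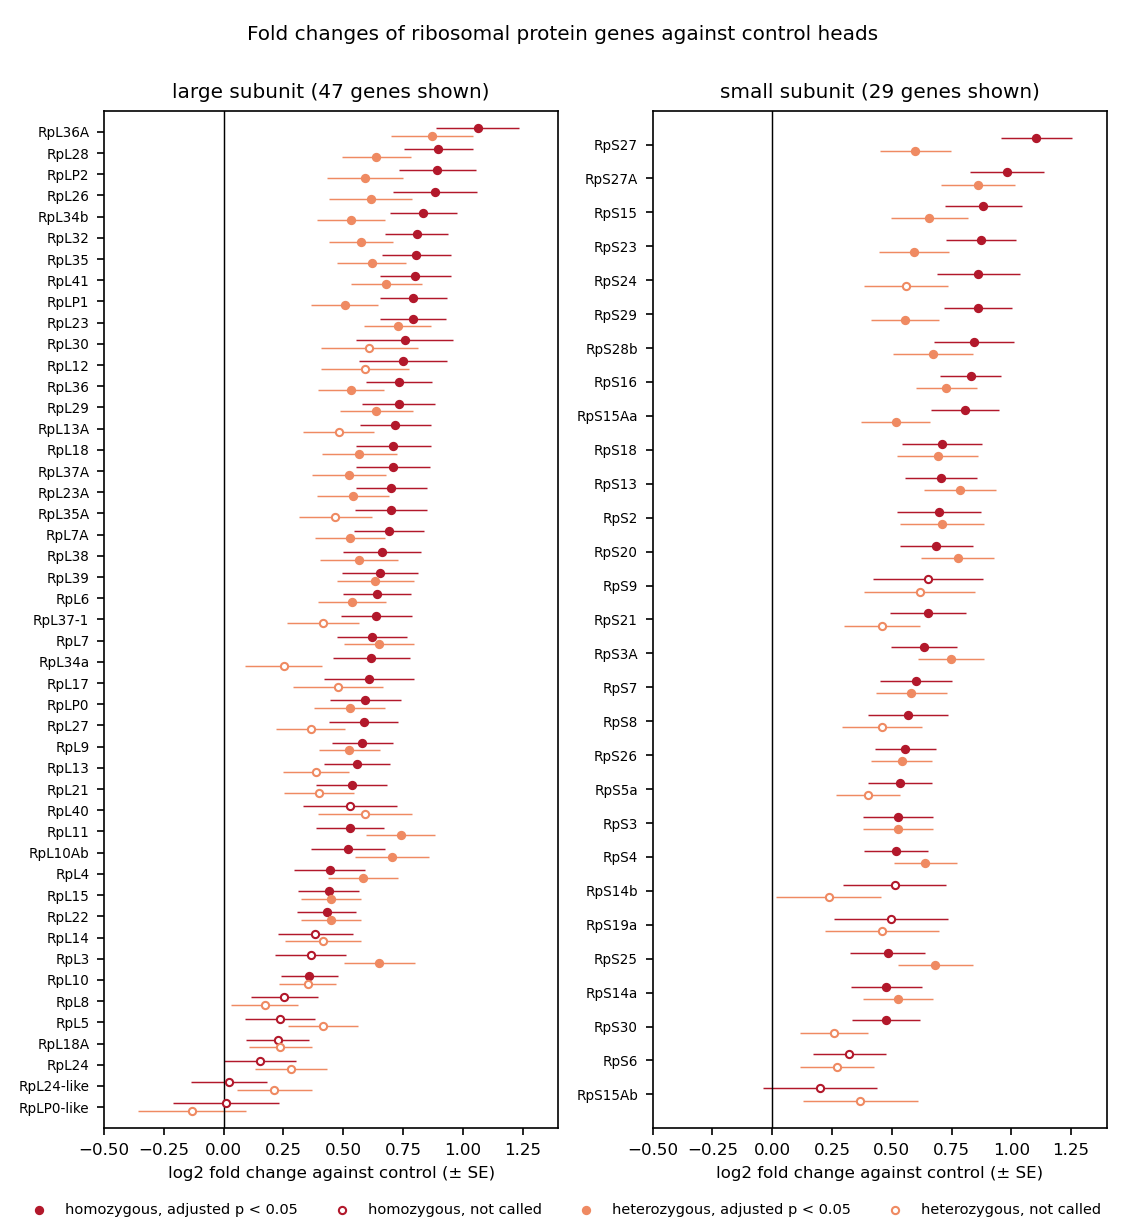
Log2 fold change against control flies (horizontal axis, ± SE) of the large subunit (left) and small subunit genes shown (right) in homozygous (red) and heterozygous flies (orange). Filled points passed edgeR's adjusted p of 0.05. Values in homozygous flies run between 0.01 for RpLP0-like and 1.10 for RpS27, and both comparisons share the same 3 control libraries.

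In heterozygous against control flies 48 members were called higher and 0 lower, where 5.55% of all genes tested were called higher and 3.77% lower. At an unadjusted p under 0.05, 66 were higher and 0 lower, and DESeq2 called 53 higher. Of all 8972 genes tested, 1143 were higher and 933 lower at that p, and DESeq2 called 490 higher. The median log2 fold change of the members was 0.54, against -0.01 over all genes tested, and 77 of 78 fold changes were positive. For 66 members the 3 heterozygous libraries all lay above the 3 control libraries, against 16.1% of all genes tested. The number called was sensitive to single libraries. It was 15, 25 and 11 without heterozygous replicates 1, 2 and 3, and 36, 9 and 18 without control replicates 1, 2 and 3. Calls fell over all genes tested as well: the 498 called higher became 240, 280 and 220, and 308, 250 and 300, in the same order of settings. The median of the members stayed between 0.46 and 0.63 when any 1 of the 9 libraries was left out.

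The largest fold changes in heterozygous flies were those of RpL36A and RpS27A, whose values by library are given above, at 0.87 ± 0.17 and 0.86 ± 0.15 (SE; edgeR adjusted p = 0.00629 and 0.00367). RpS13 had 222.8, 264.9 and 170.8 CPM in homozygous, 214.9, 224.9 and 256.2 CPM in heterozygous and 129.3, 128.0 and 146.1 CPM in control libraries. RpS3A, the member on chromosome 4 (65225 to 67207, minus strand), had 854.2, 847.0 and 648.6 CPM in homozygous, 825.0, 758.0 and 957.2 CPM in heterozygous and 510.9, 464.9 and 537.2 CPM in control libraries. For both genes homozygous and heterozygous libraries overlapped and control libraries were lowest. Their log2 fold changes in heterozygous flies were 0.79 ± 0.15 and 0.75 ± 0.14 (SE; edgeR adjusted p = 0.00525 and 0.00417). The calls of these 4 genes in heterozygous flies held in 22 of 22 other settings.

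The comparisons of homozygous and of heterozygous flies share their control libraries, so their calls are not independent. Of the members, 47 were called in both, 17 in homozygous flies alone, 1 in heterozygous flies alone and 13 in neither. The member called in heterozygous flies alone was RpL3, a protein next to the peptidyl transferase centre. It had 364.8, 406.3 and 283.2 CPM in homozygous, 427.2, 379.1 and 479.7 CPM in heterozygous and 271.6, 241.0 and 306.3 CPM in control libraries. Its log2 fold change was 0.36 ± 0.15 in homozygous and 0.65 ± 0.15 in heterozygous against control flies (SE; edgeR adjusted p = 0.102 and 0.0146). Homozygous against heterozygous flies differed by -0.29 ± 0.15 and did not pass (edgeR adjusted p = 0.294). The call in heterozygous flies was lost on leaving out heterozygous replicate 1 or 3 or control replicate 1 or 2, and in homozygous flies RpL3 was called without homozygous replicate 3 (edgeR adjusted p = 0.007).

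Homozygous and heterozygous flies were not told apart by any member in edgeR, with 0 called higher and 0 lower. Over all genes tested, 3.38% were higher and 2.11% lower by the same call. At an unadjusted p under 0.05, 5 of 78 members were higher and 0 lower, where 1011 and 824 of all 8972 genes tested were. The share of members higher was thus below that of all genes. The 5 included RpS27, RpL34a, RpL34b and RpS29. DESeq2 called 1 member higher, and 332 of all genes tested. The median log2 fold change was 0.11, against 0.02 over all genes tested, and 56 of 78 were positive. The 3 homozygous libraries all lay above the 3 heterozygous libraries for 2 members, RpL35A and RpS29, against 13.0% of all genes tested. RpS27 came closest to the threshold, at 0.51 ± 0.15 (SE; edgeR adjusted p = 0.0601). Single homozygous libraries moved this comparison. Without homozygous replicate 2 the median turned to -0.014, and without homozygous replicate 3 it was 0.23 with 10 members called higher. In the latter setting 626 of all 9147 genes tested were called higher, where all 9 libraries gave 303 of 8972. With replicate 3 as the only homozygous library the median of the members was -0.25, against -0.03 over all genes tested.

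Large and small subunit genes had close medians. In homozygous against control flies 38 of 47 large and 26 of 31 small subunit genes were called higher, with median log2 fold changes of 0.64 and 0.65. In heterozygous against control flies 28 of 47 and 20 of 31 were called higher, with medians of 0.53 and 0.58. Large subunit genes took 60.8 ± 0.360% of the member reads in homozygous, 60.7 ± 1.16% in heterozygous and 61.5 ± 1.09% in control libraries (SD, n = 3 each). These means differ by less than the SD of the heterozygous and control libraries, but the homozygous and control means differ by more than the homozygous SD. The mean log2 CPM of large subunit genes exceeded that of small subunit genes by 0.0396 ± 0.0150 in homozygous, 0.0533 ± 0.0313 in heterozygous and 0.118 ± 0.0401 in control libraries (SD, n = 3 each). By library this excess was 0.023, 0.043 and 0.053 in homozygous, 0.084, 0.022 and 0.054 in heterozygous and 0.075, 0.155 and 0.125 in control libraries. On this measure the homozygous libraries all lay below the control libraries, and the heterozygous libraries overlapped both groups. The large subunit mean weighs every gene equally, RpL24-like and RpLP0-like included, whose yeast counterparts are assembly factors. This mean was not computed without them. In homozygous replicate 3 taken alone, large subunit genes took 61.1% of the member reads. No test was run on these subunit summaries.

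To see which members moved apart from the rest of the set, the fit was repeated with each library scaled to its reads in the 78 members. In homozygous against control flies 2 members were then called higher and 3 lower. This scaling holds the median of the members near 0 (0.02) and moves that of all genes tested down to -0.58. On this scale 2.37% of all genes tested were called higher and 46.1% lower. Against control, such shares follow from the scaling and are no background for the members. RpS27 and RpL36A were the 2 higher ones, with log2 values of 0.48 ± 0.16 and 0.43 ± 0.17 (SE; edgeR adjusted p = 0.0235 and 0.0436). RpL24, RpL24-like and RpLP0-like were the 3 lower ones, at -0.47 ± 0.17, -0.60 ± 0.18 and -0.61 ± 0.23 (SE; edgeR adjusted p = 0.0275, 0.0138 and 0.038). RpL24-like was called in 13 of 17 other settings, RpL24 in 9, RpS27 and RpLP0-like in 7 each and RpL36A in 2. Without homozygous replicates 1 and 2 together, a setting added after the data were seen, 0 members were called in either direction. In heterozygous against control flies 1 member was lower on this scale, RpLP0-like at -0.66 ± 0.24 (SE; edgeR adjusted p = 0.0345), and 0 were higher, where 1.32% of all genes tested were called higher and 39.3% lower. In homozygous against heterozygous flies 0 were called, where 1.36% of all genes tested were called higher and 0.947% lower. Against control, many of the genes adjusted over were called lower through the scaling, which loosens the adjusted p of the members. At an unadjusted edgeR p under 0.05 on this scale, 3 members were higher and 6 lower in homozygous against control flies. In heterozygous against control flies these numbers were 0 and 2.

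The shares of these 5 members in the set differed in how far the groups overlapped. RpS27 made up 13.1, 12.1 and 12.4 of every 1000 member reads in homozygous, 9.57, 8.42 and 10.1 in heterozygous and 9.12, 8.89 and 8.92 in control libraries. The homozygous libraries stood above all others. RpL24 made up 8.63, 8.60 and 8.24 of every 1000 in homozygous, 9.35, 10.8 and 9.50 in heterozygous and 11.1, 11.2 and 13.0 in control libraries. RpL24-like made up 1.54, 1.57 and 1.51 of every 1000 in homozygous, 2.01, 1.87 and 1.73 in heterozygous and 2.07, 2.23 and 2.73 in control libraries. For both genes the 3 groups did not overlap, with homozygous lowest and control highest. RpL36A made up 7.33, 7.49 and 6.59 of every 1000 in homozygous, 7.05, 6.22 and 6.79 in heterozygous and 5.78, 4.96 and 5.11 in control libraries. RpLP0-like made up 0.642, 0.531 and 0.556 of every 1000 in homozygous, 0.606, 0.581 and 0.482 in heterozygous and 1.03, 0.943 and 0.677 in control libraries. For these last genes homozygous and heterozygous libraries overlapped, above all control libraries for RpL36A and below them for RpLP0-like.

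RpL24 contributes to bridges between the subunits. RpL24-like and RpLP0-like carry ribosomal protein names, but their yeast counterparts, Rlp24 and Mrt4, are assembly factors that hold the place of the ribosomal protein in the nascent large subunit. Neither passed the test in any comparison scaled to the whole library. RpL24-like, on 3R from 11430740 to 11431582 (minus strand), had 50.1, 55.3 and 37.7 CPM in homozygous, 55.8, 53.2 and 53.8 CPM in heterozygous and 45.3, 40.9 and 54.3 CPM in control libraries. RpLP0-like, on 2R from 10098518 to 10099590 (minus strand), had 20.8, 18.7 and 13.9 CPM in homozygous, 16.83, 16.52 and 14.98 CPM in heterozygous and 22.7, 17.3 and 13.5 CPM in control libraries. Homozygous and control libraries overlapped for both. Their log2 fold changes in homozygous against control flies were 0.02 ± 0.16 and 0.01 ± 0.22 (SE; edgeR adjusted p = 0.94 and 0.98), the smallest of the set, and the signs of both turned in some other settings.

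Among the 13 members called in neither comparison with control were RpL5, which binds 5S ribosomal RNA, and RpS6, the target of S6 kinase. RpL5 took the most reads of any member and had 1712, 1837 and 1419 CPM in homozygous, 1763, 1600 and 2260 CPM in heterozygous and 1386, 1508 and 1325 CPM in control libraries. Homozygous replicate 3 lay within the control range. RpS6 had 1047, 1173 and 805.2 CPM in homozygous, 952, 1054 and 915.02 CPM in heterozygous and 958.6, 746.7 and 714.4 CPM in control libraries, again with overlap, and shares 202 exon bases with another gene on its strand. The log2 fold changes in homozygous against control flies were 0.24 ± 0.15 for RpL5 and 0.32 ± 0.15 for RpS6 (SE; edgeR adjusted p = 0.284 and 0.16).

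RpS19a, RpS9 and RpL40, picked out after their values were seen, were also among the 13 and had their highest value within a group in the same libraries. RpS19a had 905.5, 1043 and 636.9 CPM in homozygous, 680.8, 1136 and 704.1 CPM in heterozygous and 819.7, 467.7 and 547.4 CPM in control libraries. RpS9 had 421.6, 471.4 and 293.4 CPM in homozygous, 322.6, 486.1 and 348.8 CPM in heterozygous and 350.4, 184.8 and 221.5 CPM in control libraries. RpL40, the second ubiquitin fusion of the set, had 464.9, 475.6 and 361.7 CPM in homozygous, 375.6, 561.4 and 421.6 CPM in heterozygous and 395.7, 229.9 and 278.1 CPM in control libraries. Heterozygous replicate 2 and control replicate 1 were high for all 3 genes. Without control replicate 1, RpS9 and RpL40 were called in homozygous flies (edgeR adjusted p = 0.017 and 0.021) and in heterozygous flies (edgeR adjusted p = 0.034 and 0.029). Without homozygous replicate 3, all 3 were called in homozygous flies (edgeR adjusted p = 0.0199 for RpS19a, 0.0040 for RpS9 and 0.0112 for RpL40). With no filter on low counts RpS9 and RpL40 were called in both comparisons (edgeR adjusted p = 0.008 and 0.020 in homozygous, 0.024 and 0.017 in heterozygous flies). The calls of RpS9 and RpL40 thus changed in several settings, and that of RpS19a only without homozygous replicate 3.

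**Figure D4:**
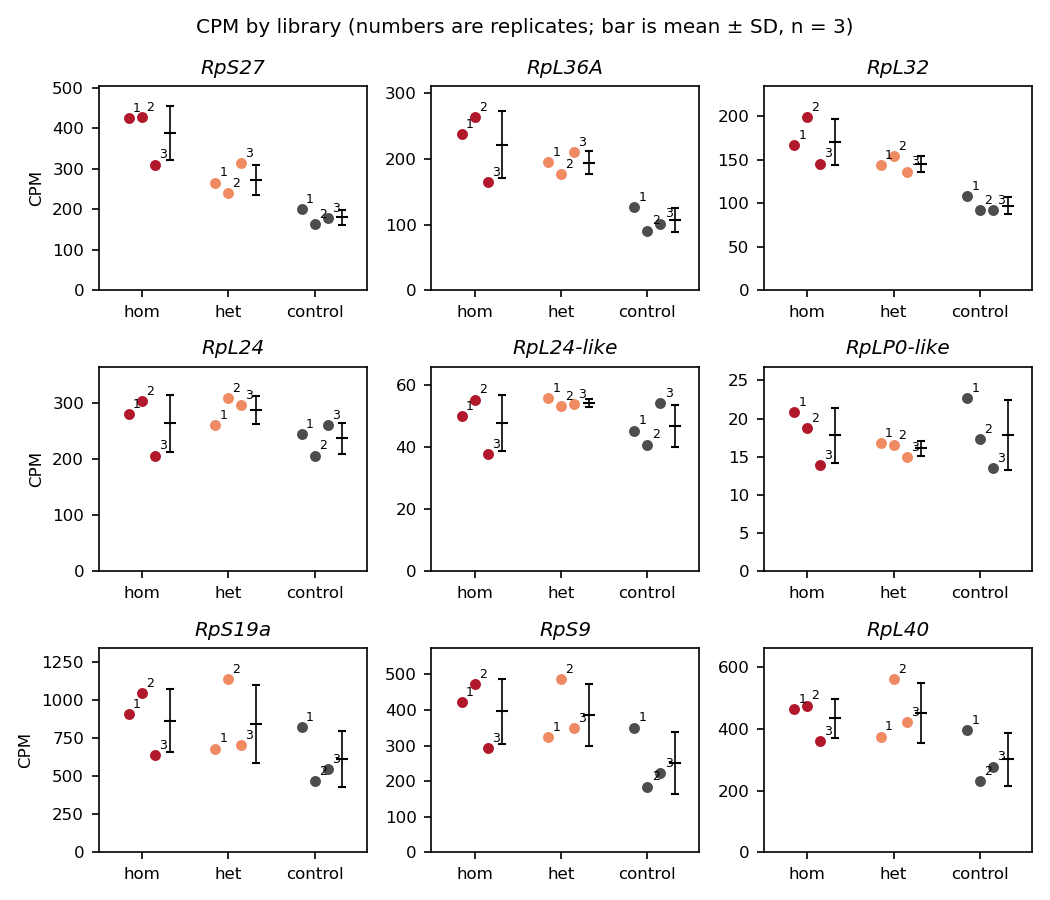
CPM of 9 members in each library of homozygous (hom, red), heterozygous (het, orange) and control flies (grey), with replicate numbers beside the points and the mean ± SD (n = 3) as a black bar; vertical axes start at 0. RpS27, RpL36A and RpL32 show no overlap of the homozygous with the control libraries, RpL24-like and RpLP0-like do, and RpS19a, RpS9 and RpL40 are high in heterozygous replicate 2 and control replicate 1.

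Several ribosomal proteins of Drosophila are encoded by a pair of genes, of which 1 is often used mainly in the germ line. Pairs were listed by shared symbol stem, so that some set a ribosomal protein beside a gene named as like it, such as RpL24-like and RpLP0-like above. Both genes passed the read minimum in 5 of 15 pairs listed, of which 3 join genes of the same ribosomal protein. Their ratio needs no scaling between libraries and was tested over the 3 groups with an exact permutation test over 1680 assignments of the libraries (two-sided, smallest p possible 0.00357). RpLP0-like supplied 4.87, 3.97 and 4.59% of the reads of its pair with RpLP0 in homozygous, 4.39, 4.47 and 3.81% in heterozygous and 8.39, 6.76 and 4.67% in control libraries (exact permutation p = 0.0607, adjusted over the 5 pairs 0.304). RpS15Ab supplied 2.58, 4.14 and 3.53% of its pair with RpS15Aa in homozygous, 4.01, 5.39 and 4.42% in heterozygous and 4.45, 4.27 and 6.53% in control libraries (exact permutation p = 0.125, adjusted 0.3125). Groups overlapped in both pairs.

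RpL34b supplied 58.8, 63.0 and 69.5% of its pair with RpL34a in homozygous, 65.6, 60.3 and 67.6% in heterozygous and 66.2, 54.5 and 59.3% in control libraries, the only pair of the 5 in which both genes gave a large part of the reads. RpS14b, which lies directly beside RpS14a on X, supplied 23.5, 21.7 and 22.7% in homozygous, 18.4, 22.6 and 15.7% in heterozygous and 23.7, 16.8 and 25.6% in control libraries. The ratios of these pairs and of RpL24 with RpL24-like did not pass (exact permutation p = 0.532, 0.468 and 0.486, adjusted 0.532 in each). Reads without a unique position were not counted in genes, so levels of near-identical pairs such as RpS14a and RpS14b are uncertain.

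The 9 genes below the minimum were RpL7-like, RpL10Aa, RpL22-like, RpL37-2, RpS5b, RpS10a, RpS19b, RpS28-like and RpS28a. RpL10Aa and RpL37-2 had 0 reads in all 9 libraries, which allows up to 0.0938 CPM over the libraries together (3 reads of the total, counting error only). RpS5b, the germ line partner of RpS5a, had 25 reads, of which 19 fell in control replicate 3, the library with ovary transcripts. The other 6 had between 1 and 4 reads in all. RpS15Ab, the lowest member above the minimum, had 43, 54 and 44 reads in homozygous, 42, 51 and 47 in heterozygous and 29, 28 and 43 in control libraries.

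Ribosomal proteins whose symbols do not begin with RpL or RpS were higher too. Rack1, a scaffold on the head of the small subunit, averaged 217 ± 25.1 CPM in homozygous, 190 ± 12.8 in heterozygous and 111 ± 20.2 in control flies (SD, n = 3 each). It was called higher in homozygous flies at 0.97 ± 0.14 and in heterozygous flies at 0.78 ± 0.14 against control (SE; edgeR adjusted p = 4.05e-04 and 0.00378). The small subunit protein gene sta was called higher in both as well, at 0.84 ± 0.14 and 0.78 ± 0.14 (SE; edgeR adjusted p = 8.94e-04 and 0.00327). Both were called in homozygous flies without homozygous replicates 1 and 2 together, Rack1 at 0.77 ± 0.17 and sta at 0.54 ± 0.14 (SE; edgeR adjusted p = 0.00533 and 0.0181).

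Of 35 translation factor genes tested, 8 were called higher in homozygous flies and 0 lower, with a median log2 fold change of 0.22, and 4 higher in heterozygous flies and 0 lower, with a median of 0.23. Among all genes tested, homozygous flies had 10.9% higher and 8.77% lower, and heterozygous flies 5.55 and 3.77%. With replicate 3 as the only homozygous library, the translation factors had medians of 0.10 in homozygous and 0.24 in heterozygous against control flies. Over all genes tested the medians were -0.02 and -0.004 in that fit. With control replicate 3 left out as well, the medians of the translation factors were 0.16 and 0.29. The elongation factor subunit eEF1gamma averaged 358 ± 27.4 CPM in homozygous, 345 ± 33.8 in heterozygous and 243 ± 10.6 in control flies (SD, n = 3 each) and was called in both (0.56 ± 0.12 and 0.50 ± 0.12, SE; edgeR adjusted p = 0.00426 and 0.0147). Of 43 genes tested from a list for ribosome biogenesis, 1 was called higher (Nlp, 0.57) and 2 lower (RIOK2, -0.47, and Polr1B, -0.95) in homozygous flies. The median of the 43 was -0.05. The list was broad, and the role of each gene on it, Nlp and Rrp1 included, was not checked. In heterozygous flies 1 was called higher (Non1, 0.49) and 1 lower (Polr1A, -0.56), with a median of -0.14. The same shares of all genes, given with the translation factors, apply here. In the fit without homozygous replicates 1 and 2 together, 45 genes of this list were tested. Their median was -0.18 in homozygous and -0.12 in heterozygous against control flies. The difference between these lists and the ribosomal proteins was not tested.

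**Figure D5:**
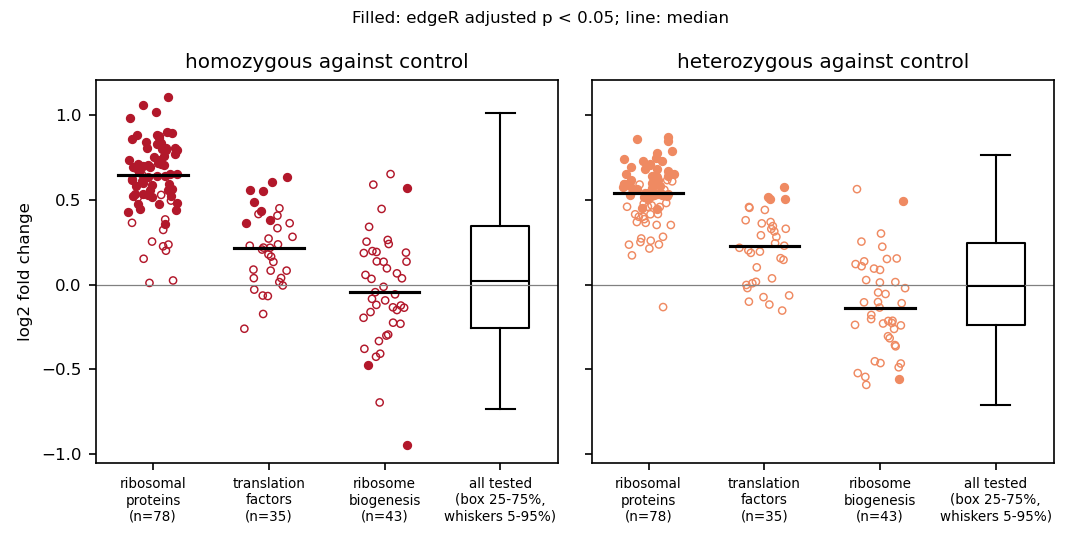
Log2 fold change in homozygous (left) and heterozygous flies (right) against control of 78 ribosomal protein, 35 translation factor and 43 ribosome biogenesis genes; each point is a gene, filled where edgeR's adjusted p was under 0.05, and black lines are medians. The box runs between the quartiles of all 8972 genes tested, with whiskers at the 5% and 95% quantiles; the ribosomal protein medians are 0.65 and 0.54 and the biogenesis medians -0.05 and -0.14.

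Of 13 genes tested that regulate ribosomal protein expression or respond to its loss, 1 was called higher and 1 lower in homozygous against control flies, where the shares of all genes were 10.9 and 8.77%. In heterozygous against control flies 0 were called higher and 1 lower, where they were 5.55 and 3.77%. The gene called lower in both, larp, averaged 425 ± 40.6 CPM in homozygous, 461 ± 37.4 in heterozygous and 628 ± 68.8 in control flies (SD, n = 3 each). It encodes the La-related protein that binds transcripts of ribosomal proteins. Its log2 fold change against control was -0.56 ± 0.12 in homozygous and -0.45 ± 0.12 in heterozygous flies (SE; edgeR adjusted p = 0.0063 and 0.0385). Xrp1, a transcription factor raised in flies that lack a copy of a ribosomal protein gene, rose by 0.39 ± 0.12 in homozygous against control flies (SE; edgeR adjusted p = 0.03), and in heterozygous flies it stood at 0.09 ± 0.12 (edgeR adjusted p = 0.676). Thor, the 4E-BP translation repressor, was called in homozygous against heterozygous flies alone, at 0.72 ± 0.19 (SE; edgeR adjusted p = 0.0444), where 3.38% of all genes were called higher and 2.11% lower. None of these calls in homozygous flies was made without homozygous replicates 1 and 2 together: larp was at -0.46 ± 0.16, Xrp1 at 0.26 ± 0.15 and Thor, against heterozygous flies, at 0.71 ± 0.24 (SE; edgeR adjusted p = 0.061, 0.285 and 0.0816). Without control replicate 3, the call of Xrp1 was lost (edgeR adjusted p = 0.0993). Myc, a driver of ribosome production, stood at -0.06 ± 0.25 in homozygous and -0.26 ± 0.25 in heterozygous against control flies (SE; edgeR adjusted p = 0.902 and 0.592).

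Shorter members had larger fold changes in homozygous flies. The members' exons summed to 288 to 3835 bases, with a median of 921.5, where expressed protein-coding genes had a median of 2254. Across the 78 members Spearman's rho of the fold change with exon length was -0.34 in homozygous and -0.12 in heterozygous against control flies, and with mean CPM it was -0.01 and 0.02. These are descriptions across genes of the same libraries. Other genes no longer than the member median were called higher in homozygous flies in 18.4% of 995 cases, with a median log2 fold change of 0.29, and longer ones in 9.22% of 7719, with a median of -0.01. With each library corrected for a smooth trend with exon length, 48 members were called higher in homozygous and 42 in heterozygous flies, each with a median of 0.44.

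Medians were close across position and gene structure. The 13 members on X had a median log2 fold change of 0.61 in homozygous against control flies and the 65 on autosomes 0.65, with 10 and 54 called higher. The 26 members that host small nucleolar RNA genes had a median of 0.60 with 21 called higher, and the 52 that do not had 0.66 with 43 called. The 28 members that share exon bases with another gene had a median of 0.69 with 22 called, and the 50 that share none had 0.63 with 42 called. In heterozygous against control flies the medians were 0.48 on X and 0.57 on autosomes, 0.58 in hosts and 0.53 in the others, and 0.59 with shared bases and 0.53 without.

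Some lists of cell type markers differed in sum between the groups as well. As background for the calls below, 10.9% of the 8972 genes passed as higher and 8.77% as lower in homozygous against control flies. For heterozygous against control flies these shares were 5.55% and 3.77%. In lists of 3 to 7 genes a single call says little beside such shares. The 7 photoreceptor genes, whose sums by group are given at the start, had none at 0. In homozygous flies 0 of them were called higher and 3 lower (Arr2 at -0.76, ninaE at -0.47 and ninaC at -0.39 on the log2 scale), and 2 higher (Arr1 at 0.46 and trp at 0.43) and 1 lower (norpA at -0.74) in heterozygous flies, each set against control. The 6 neuron genes in the files (of 7 listed) summed to 4318 to 4912 CPM in homozygous, 4849 to 5282 in heterozygous and 6408 to 6832 in control libraries, with none at 0, and elav, Syn and Syt1 were called lower in homozygous and in heterozygous against control flies. The 7 fat body genes summed to 8912, 8819 and 3401 CPM in homozygous, 6884, 7232 and 10423 CPM in heterozygous and 5978, 4462 and 4391 CPM in control libraries, with none at 0. Of 6 tested, Sodh1, apolpp and Lsp2 were called higher in homozygous flies (2.13, 1.28 and 1.85) and Sodh1, apolpp and Yp2 in heterozygous flies (1.30, 1.202 and 0.92), with 0 lower in either. In homozygous replicate 3 the sum of the fat body genes was below every control library, and that of the digestive tract genes was within the control range. With replicate 3 as the only homozygous library, the median log2 fold change of the 7 fat body genes against control was 0.21. The 4 muscle genes in the files summed to 17597 to 26381 CPM in homozygous, 30598 to 32211 in heterozygous and 19367 to 21867 in control libraries. In heterozygous flies Mhc and Mlc2 were called higher than in control (0.75 and 0.81), and in homozygous flies 0 of the 4 were called. The 5 glia genes summed to 5429 to 6522, 5012 to 5621 and 4840 to 5012 CPM, and the 3 haemocyte genes to 61.2 to 105, 109 to 113 and 95.7 to 112 CPM in the same order of groups, and Pxn of the haemocyte list was called lower in homozygous flies (-0.65). Alignments outside the annotation were 19.1 ± 1.62% of all those tallied in homozygous, 23.6 ± 4.68% in heterozygous and 29.4 ± 2.83% in control libraries, and reads without a unique position 10.2 ± 1.82, 12.5 ± 1.77 and 15.5 ± 0.438% (SD, n = 3 each). The part of these differences in the ribosomal protein result was not tested.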

How the data were processed

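Poly(A) RNA was sequenced from directional libraries, per the labels' protocols. Per the submitters' processing notes the tools were CASAVA 1.8.4, STAR 2.4.0h, HTSeq 0.6.1 and DESeq2 1.6.3 with BDGP6. The authors deposited whole-number read counts per gene for each library. The strand setting is not given in the sources used here, so reads of overlapping genes cannot be told apart. Identifiers were matched to an Ensembl annotation of BDGP6, which held 17252 of 17558, and lines for uncounted reads were left out.

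Counts were scaled with TMM factors, filtered with filterByExpr (minimum count 10, minimum total 15; all 78 members passed) and tested with edgeR 4.0.16 (R 4.3.3) on the 3 group means over all 9 libraries. The call is an adjusted p under 0.05 over 8972 genes. Per-library log2 CPM summaries used a pseudocount of 0.5 CPM, and paralog ratios one of 0.5 reads. Intervals and floors cover counting error only. Alternatives were other scalings and filters, DESeq2 1.42.0, limma 3.58.1 (voom), a replicate block, exon length correction and left-out libraries; the fits of other gene lists and of the member-scaled values without homozygous replicates 1 and 2 were added after the data were seen. The steps were tested on simulated data. Members, lists, comparisons and the rule that any member may be named were chosen with earlier results of these data known. Of the members, 2 are counted but not reported here by name or drawn in the plots by gene.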

Additional observations from a re-analysis of the deposited data

How the results depend on the processing

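The higher calls against control kept their direction in every setting run, with 0 members called lower in each, while their number moved. In homozygous against control flies the 64 members called became 37 at an adjusted p of 0.01, 13 without homozygous replicates 1 and 2 together, 23 without control replicate 3 as well, and 37 to 72 when any 1 library was left out. In heterozygous against control flies the 48 became 10 at an adjusted p of 0.01 and 9 to 66 when any 1 library was left out. Over all genes tested, the 978 and 498 called higher in these 2 comparisons became 494 and 188 at an adjusted p of 0.01. When any 1 library was left out, they became 639 to 1329 and 220 to 813. Of the calls, 13 of 64 and 9 of 48 were made in all 22 other settings at the same threshold. Between homozygous and heterozygous flies the 0 called higher became 1 with library totals alone, with no filter and with DESeq2, and 0 to 10 when any 1 library was left out, and the 0 called lower became 4 without homozygous replicates 1 and 2 and 6 without control replicate 3 as well. The median of that comparison, 0.11, turned to -0.25 without homozygous replicates 1 and 2 and to -0.22 without control replicate 3 as well. Over all genes tested the medians were -0.03 and -0.0004 there. The median of the members ran between -0.014 and 0.23 when any 1 library was left out. Scaled to the member reads, the 2 higher became 0 with no filter, at 0.01, with only the 2 groups compared and with exon length correction, 1 with the middle of the members as the pool, 0 without homozygous replicates 1 and 2 together or control replicate 3 as well, and 0 to 3 when any 1 library was left out. The 3 lower became 1, 0, 1 and 11 with no filter, at 0.01, with only 2 groups and with exon length correction, 0 without homozygous replicates 1 and 2 together or control replicate 3 as well, and 1 to 6 when any 1 library was left out. The cause of these moves was not tested. Where 1 homozygous library was left, it was assumed to vary like the other groups.

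With the replicate number as a block, 61 and 42 members were called higher in homozygous and heterozygous against control flies, and 0 higher and 2 lower in homozygous against control flies scaled to the member reads. Replicate numbers gave no sign of pairing, since deviations from the group means correlated at -0.0659 to 0.117 within a number and at -0.114 to 0.114 across numbers.

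Signs turned for members that were not called. Without homozygous replicates 1 and 2, and without control replicate 3 as well, log2 fold changes in homozygous against control flies were -0.22 and -0.13 for RpL24, -0.010 and -0.028 for RpL5, -0.024 and -0.081 for RpS6, -0.34 and -0.19 for RpL24-like and -0.37 and -0.51 for RpLP0-like, and RpS19a was at -0.012 in the second. With library totals alone RpL24-like and RpLP0-like were at -0.027 and -0.032, with exon length correction they were at -0.20 and -0.18 and RpS15Ab at -0.029, and RpLP0-like was at -0.00428 with other size factors (RLE) and -0.00513 with DESeq2. Leaving out any 1 library gave -0.11 to 0.17 for RpL24-like, -0.16 to 0.20 for RpLP0-like and -0.00067 to 0.37 for RpS15Ab, and -0.30 to 0.064 for RpLP0-like in heterozygous against control flies.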
